A study of Mus musculus with 96 samples.

Results

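The 10 genes described here, Cdkn1a, Ccng1, Mdm2, Bax, Bbc3, Eda2r, Trp53inp1, Phlda3, Sesn2 and Zmat3, are known targets of the transcription factor p53 and were chosen by name out of 22422 mouse genes with coding counts. They were measured in E11.5 embryonic neural tubes by RNA-seq, which counts mRNA fragments, and by ribosome profiling (Ribo-seq), which counts the mRNA fragments that ribosomes protect from RNase. The mutant embryos were C3HeB mice heterozygous for the Xs-J allele of Eif3c, which encodes a core subunit of the translation initiation factor eIF3, and they retained 1 wild type allele. The wild type embryos were C3HeB mice without that allele. Each genotype had 3 pools. Per the labels' protocol, a preparation came from the dissociated cells of 1 litter, split so that one share gave the RNA library and the other the footprint library. That the pools of a genotype are separate litters is not stated, so p-values measure the spread between pools, which may be partly technical.

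p53, encoded by Trp53, is held at a low level by Mdm2, a ubiquitin ligase whose own gene p53 turns on, so that the pair form a feedback loop. Stress on DNA, on nucleotide supply or on ribosome production releases p53, which then raises genes that stop the cell cycle, genes of apoptosis and genes of metabolism and RNA control. In embryos, excess p53 activity is known to harm the neural tube and the neural crest. The 10 genes sample each of these branches. Cdkn1a (p21) blocks cyclin-dependent kinases, and Ccng1 (cyclin G1) binds a phosphatase that acts on Mdm2. Bax and Bbc3 (Puma) act at the mitochondrion in apoptosis, Eda2r is a death-receptor-like receptor for an ectodysplasin, Trp53inp1 is a stress-induced p53 cofactor, and Phlda3 restrains the kinase Akt. Sesn2 restrains mTORC1, and Zmat3 is an RNA-binding protein that acts on splicing and mRNA stability.

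Coding depth was 7.20M to 13.1M counts in RNA libraries and 11.3M to 59.2M in footprint libraries. Eif3c, counted over its coding sequence, had 296, 290 and 302 CPM (coding counts scaled to library size) in mutant RNA, against 518, 497 and 474 CPM in wild type RNA. It was lower in every mutant library, which matches the labelled genotypes. All 10 neural tube markers examined, among them Sox1, Sox2, Nes and Tubb3, were detected in every group. Their summed RNA ranged from 3967 to 4499 CPM in the mutant, against 4757 to 4815 CPM in wild type. Of these, the neuronal markers Tubb3, Elavl3, Dcx and Map2 lay lower in every mutant RNA pool than in any wild type pool. Their log2 differences ran from -0.33 to -0.20. The progenitor markers Pax6 (0.25) and Sox1 (0.21) lay higher without overlap, while Sox2, Nes, Hes5 and Olig2 overlapped. None of the 10 passed with edgeR. Of 13406 genes tested in RNA, 1478 were lower and 1497 higher without overlap. In footprints Elavl3, Dcx and Map2 again lay lower without overlap, and Hes5 (0.46) lay higher. Tubb3 (-0.03), Pax6 (0.04), Sox1, Sox2, Nes and Olig2 overlapped there. Of 13423 genes tested in footprints, 1985 were lower and 1935 higher without overlap. DESeq2 called 1 of the 10 markers in RNA and 3 in footprints, beside 3.93% and 6.49% of all genes. In footprints limma-voom called 1, beside 0.968% of all genes. Markers of other cells were present as well. The 13 erythroid markers found, of 14 listed, summed to 6513, 3445 and 2873 CPM in mutant RNA pools 1, 2 and 3, and to 2757 to 3415 CPM in wild type RNA, with no marker at 0 in any group. The 10 endothelial markers summed to 634, 380 and 386 CPM in mutant RNA and to 395 to 446 CPM in wild type RNA. Mutant pool 1 thus held more blood and vessel transcripts than the other RNA libraries. All 13 erythroid markers had RNA values above 0 (median log2 difference 0.49), and 1 of them, the globin gene Hbb-bt, passed, at 14.6 ± 3.33 CPM in mutant RNA and 6.19 ± 1.35 CPM in wild type RNA (SD, n = 3 each; edgeR adjusted p = 0.0365), with groups that did not overlap. In footprints 12 of the 13 were above 0 (median 0.26) and the globin gene Hba-a2 passed (edgeR adjusted p = 0.0467). The 10 mesenchyme markers summed to 1855, 1242 and 1142 footprint CPM in mutant pools 1, 2 and 3, against 965 to 1138 CPM in wild type, and all 10 had footprint values above 0 (median 0.47). Of these, edgeR and limma-voom called 0 and DESeq2 2, beside 6.49% of all genes with DESeq2. In RNA their sums overlapped, at 591 to 894 CPM in the mutant and 510 to 898 CPM in wild type. The 10 endothelial markers were also all above 0 in footprints (median 0.15), though their summed footprints overlapped. For these, edgeR called 0, DESeq2 1 and limma-voom 1, beside 0.968% of all genes with limma-voom. The part of other cells, or of neurons against progenitors, in the results below was not tested beyond leaving out each pool. In such bulk samples, fewer cells of a type and less RNA per cell cannot be told apart.

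p53 binds DNA as a pair of half-sites of 10 bases each. The promoter windows of 8 of the 10 genes, from 250 bases before to 50 after a transcript start, were read from RefSeq sequences of GRCm38.p6 and searched for the half-site consensus, which reads the same on both strands. The 4 genes with a match are shown with 20 bases on either side, since they include the pair of cell cycle genes that stood higher in mutant embryos and a pair that did not. Capitals mark the matches.
Cdkn1a: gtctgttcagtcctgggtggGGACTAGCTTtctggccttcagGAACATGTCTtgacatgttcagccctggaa
Ccng1: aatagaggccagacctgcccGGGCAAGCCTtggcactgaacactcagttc
Mdm2: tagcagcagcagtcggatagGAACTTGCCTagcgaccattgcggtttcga
Bax: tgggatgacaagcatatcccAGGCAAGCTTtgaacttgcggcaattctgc
The Cdkn1a stretch lies at chr17:29090886-29090957 on the plus strand, where the 2 matches start 73 and 51 bases before the transcript start of that window. The others lie on the minus strand, that of Ccng1 at chr11:40755442-40755491, that of Mdm2 at chr10:117710915-117710964 and that of Bax at chr7:45467070-45467119. Of all 27025 genes in the RefSeq table, 9.55% held at least 1 such match in a promoter window. None was found in the other window of Cdkn1a, at a later transcript start, or in the windows of Bbc3, Eda2r, Phlda3 and Sesn2. No window of Trp53inp1 or Zmat3 was in the RefSeq table. The only Mdm2 window lay at the outer start of the gene, so the inner promoter that p53 is known to activate was not searched. A match is a run of letters, not a measured binding event.

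The first comparison asked which of these mRNAs differed in level between heterozygous and wild type neural tubes. Eda2r and Ccng1 rose in mutant RNA, each in 3 of 3 pools above every wild type pool. These were 2 of 10 genes, where 0.224% of the 13406 genes tested rose. Eda2r passed the filter on low counts only through its mutant libraries, so that it could enter the test only by being higher there, and Ccng1 was the 1 call among the other 9 genes. Cdkn1a, Phlda3 and Sesn2 were also higher in all mutant pools than in any wild type pool without passing the test. Groups that do not overlap in this direction were therefore seen for 4 of the 9 genes other than Eda2r and for 11.2% of all genes tested. Mdm2, Bax, Bbc3, Trp53inp1 and Zmat3 overlapped between the genotypes.

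Of the cell cycle genes, Ccng1 (ENSMUSG00000020326.7, mm10 chromosome 11, 40748552 to 40755311) had 36.3, 39.5 and 43.9 CPM in mutant RNA, against 28.4, 25.3 and 26.8 CPM in wild type RNA. The lowest mutant pool stood well above the highest wild type pool. The log2 difference was 0.57 ± 0.10 (SE, edgeR's quasi-likelihood test, Benjamini-Hochberg adjusted p = 0.0391), a 1.49-fold rise. Cdkn1a (ENSMUSG00000023067.14, chromosome 17, 29090976 to 29100727) had 9.33, 6.50 and 7.30 CPM in mutant RNA, against 5.37, 5.07 and 5.28 CPM in wild type RNA. The mutant pools spread widely and the wild type pools hardly at all, and the pool with the most Cdkn1a was mutant pool 1, in which the blood markers were also highest. Its log2 difference over the coding sequence, 0.57 ± 0.18, was as large as that of Ccng1 but did not pass (edgeR adjusted p = 0.139). Without mutant pool 1 it was 0.40 (edgeR adjusted p = 0.358). Without mutant pool 2 it was 0.67 and passed (edgeR adjusted p = 0.0350), in a fit that called 11.2% of all genes. Over whole transcripts, counted after seeing the data, Cdkn1a differed by less than Ccng1. The values were 0.35 ± 0.12 for Cdkn1a (edgeR adjusted p = 0.165) and 0.64 ± 0.08 for Ccng1 (edgeR adjusted p = 0.0420).

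Eda2r (ENSMUSG00000034457.10, chromosome X, 97333840 to 97377216) rose on few counts. Its coding sequence held 34, 18 and 35 counts in mutant RNA, or 2.56, 1.89 and 3.45 CPM, against 4, 5 and 0 counts in wild type RNA, or 0.467, 0.384 and 0 CPM. The groups were far apart, and 1 wild type library had no coding count at all. The log2 difference was 3.04 ± 0.50 (edgeR adjusted p = 0.0365), a value that depends on the small count added to such a gene in the fit. The long 3' untranslated region of the transcript gave a deeper reading, with 108, 71 and 102 RNA counts in mutant libraries, against 16, 21 and 20 in wild type libraries. Scaled to each library's coding counts these were 8.56 ± 1.33 CPM in mutant RNA and 2.08 ± 0.619 CPM in wild type RNA (SD, n = 3 each), 4.12 times as many. Counted over whole transcripts, a choice made after seeing the data, Eda2r rose by 2.22 ± 0.21 on the log2 scale, or 4.65-fold (edgeR adjusted p = 0.00563). Ccng1 rose by 0.64 ± 0.08 in the same fit (edgeR adjusted p = 0.0420). With Eif3c, they were 3 of only 4 genes past the threshold among 14027 tested over whole transcripts, or 0.0285%.

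The other apoptosis genes did not pass in RNA. Phlda3 had 3.69, 3.77 and 3.55 CPM in mutant RNA, against 2.10, 2.07 and 3.48 CPM in wild type RNA, where pool 3 came close to the mutant level (0.57 ± 0.25, edgeR adjusted p = 0.270). Bax, the most abundant of the 10 per length of coding sequence, averaged 97.7 ± 7.06 CPM in mutant RNA and 93.9 ± 3.54 CPM in wild type RNA (SD, n = 3 each). Its log2 difference was 0.06 ± 0.07. Bbc3 averaged 6.84 ± 0.123 CPM in mutant RNA and 6.86 ± 0.634 CPM in wild type RNA, a log2 difference of 0.00 ± 0.16. Trp53inp1 differed by -0.11 ± 0.10. The edgeR adjusted p of these 3 genes ran from 0.615 for Trp53inp1 to 0.991 for Bbc3.

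Mdm2, the feedback gene, averaged 98.4 ± 3.17 CPM in mutant RNA and 89.2 ± 8.02 CPM in wild type RNA (SD, n = 3 each), a log2 difference of 0.14 ± 0.08 (edgeR adjusted p = 0.364). Sesn2 had 13.9, 13.8 and 15.2 CPM in mutant RNA, against 12.7, 11.6 and 11.96 CPM in wild type RNA, close but not overlapping (0.25 ± 0.12, edgeR adjusted p = 0.314). Zmat3 averaged 35.4 ± 1.76 CPM in mutant RNA and 32.8 ± 1.87 CPM in wild type RNA (0.11 ± 0.09, edgeR adjusted p = 0.576). The median over the 9 genes other than Eda2r was 0.14, beside 0.01 over all genes tested, and 8 of the 9 values were above 0, beside 53.2% of all genes. An unadjusted edgeR p under 0.05 was seen for 3 of the 9, beside 17.5% of all genes.

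The 2 RNA calls depended on which pools were fitted. Both were lost without mutant pool 3 and without wild type pool 1, 2 or 3, each of which leaves that group with 2 libraries. In these fits the log2 difference of Ccng1 ran from 0.49 to 0.61 (edgeR adjusted p = 0.196 to 0.250) and that of Eda2r from 2.62 to 3.37 (edgeR adjusted p = 0.167 to 0.250). With an offset for coding GC content, Ccng1 stood at 0.48 (edgeR adjusted p = 0.135) and Eda2r at 3.01 (edgeR adjusted p = 0.0757). Without mutant pool 1, the pool rich in blood transcripts, Ccng1 was at 0.64 and Eda2r at 3.06, both past the threshold (edgeR adjusted p = 0.0217 for each).

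**Figure D1:**
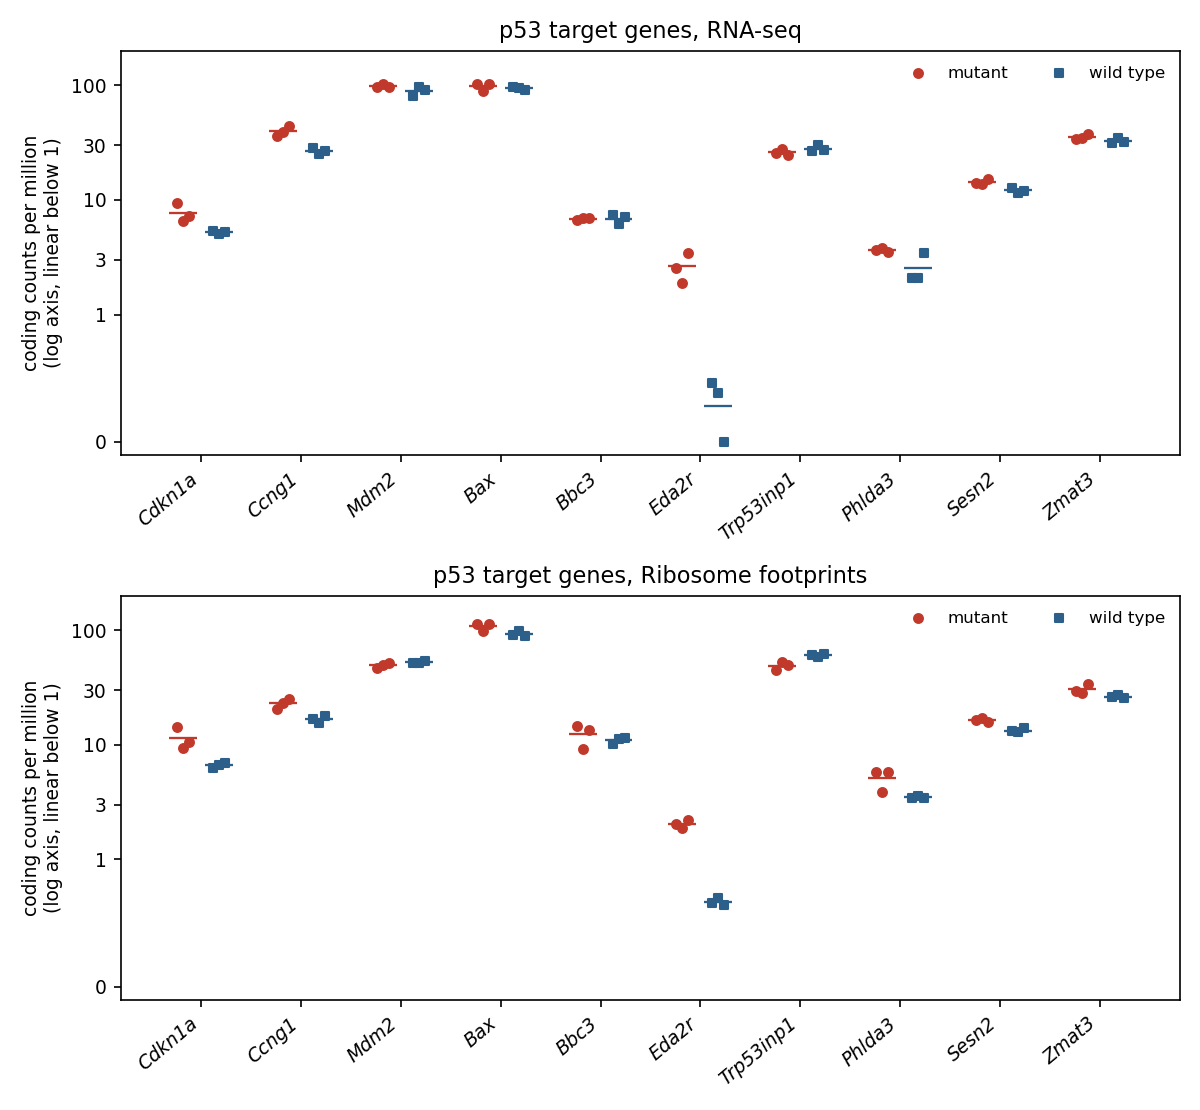
Coding CPM of the 10 genes in each library, RNA-seq above and footprints below, on a log axis that is linear below 1. Red circles are the 3 mutant pools, blue squares the 3 wild type pools and lines the means; Eda2r and Ccng1 show the clearest gaps in RNA, while Bax, Bbc3 and Mdm2 lie together.

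Footprints over coding sequences asked the same of ribosome occupancy. Eda2r rose, the only one of the 10 genes past the threshold, where 0.223% of 13423 genes rose. It had 2.05, 1.88 and 2.20 footprint CPM in mutant libraries, against 0.662, 0.697 and 0.644 CPM in wild type libraries. The pools of each genotype lay close together and the groups far apart. The log2 difference was 1.62 ± 0.23 (edgeR adjusted p = 0.0259), a 3.08-fold rise that rests on 23, 23 and 33 mutant footprints and 39, 12 and 21 wild type footprints. Leaving out any pool other than mutant pool 2 ended this call (log2 1.56 to 1.64, edgeR adjusted p = 0.0592 to 0.218), as did adding 4 incomplete lanes of mutant pool 1 (1.61, edgeR adjusted p = 0.0649). Those lanes hold counts on only 2 or 3 chromosomes, so adding them raises the counts of that library only for genes there.

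Mutant footprints lay above all wild type footprints for Eda2r, Cdkn1a, Ccng1, Phlda3, Sesn2 and Zmat3, 6 of the 10 genes, which was so for 14.4% of all genes. Cdkn1a had 14.2, 9.34 and 10.5 footprint CPM in mutant libraries, against 6.28, 6.68 and 6.99 CPM in wild type libraries. As in RNA, mutant pool 1 was highest and the wild type pools were nearly level. The log2 difference of 0.77 ± 0.16 missed the threshold (edgeR adjusted p = 0.0767) and was 0.59 without mutant pool 1 (edgeR adjusted p = 0.125). It passed with DESeq2 (DESeq2 adjusted p = 0.00296), with no filter on low counts (edgeR adjusted p = 0.0413) and without mutant pool 2 (edgeR adjusted p = 0.00839). DESeq2 called 6.49% of all genes in footprints and the fit without mutant pool 2 called 17.1%. Ccng1 had 20.6, 23.3 and 25.1 footprint CPM in mutant libraries, against 16.8, 15.6 and 17.7 CPM in wild type libraries (0.46 ± 0.11, edgeR adjusted p = 0.0868). DESeq2 called this difference (DESeq2 adjusted p = 0.0111), as did the fit without mutant pool 2 (edgeR adjusted p = 0.0384).

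Phlda3 had 5.80, 3.85 and 5.80 footprint CPM in mutant libraries, against 3.46, 3.60 and 3.43 CPM in wild type libraries, the second mutant pool lying close to wild type (0.56 ± 0.18, edgeR adjusted p = 0.131). Without that pool it passed at 0.73 (edgeR adjusted p = 0.0141). Sesn2 differed by 0.30 ± 0.10 (edgeR adjusted p = 0.141) and Zmat3 by 0.22 ± 0.09 (edgeR adjusted p = 0.205). Bax differed by 0.23 ± 0.08 (edgeR adjusted p = 0.152) and Bbc3 by 0.18 ± 0.16 (edgeR adjusted p = 0.519), with overlapping pools, and Bax passed without mutant pool 2 (0.29, edgeR adjusted p = 0.0270).

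Trp53inp1 and Mdm2 lay the other way, with every mutant pool below every wild type pool, as for 14.8% of all genes. Trp53inp1 had 44.8, 52.4 and 49.4 footprint CPM in mutant libraries, against 60.3, 57.9 and 62.2 CPM in wild type libraries. The log2 difference was -0.30 ± 0.08 (edgeR adjusted p = 0.102), and it passed with DESeq2 (DESeq2 adjusted p = 0.0379) and without mutant pool 2 (-0.36, edgeR adjusted p = 0.0192). Mdm2 had 47.2, 50.1 and 51.8 footprint CPM in mutant libraries, against 51.9, 52.0 and 53.5 CPM in wild type libraries, groups that nearly touched (-0.08 ± 0.07, edgeR adjusted p = 0.542). When the incomplete lanes, with counts on only 2 or 3 chromosomes, were added to mutant pool 1, Mdm2 stood at 0.29 ± 0.21. The median over the 10 genes was 0.27, beside 0.01 over all genes. An unadjusted edgeR p under 0.05 was seen for 8 of the 10, or 7 of the 9 without Eda2r, beside 22.8% of all genes. Trp53inp1, which lay below 0, is among them.

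Trp53 itself is controlled mostly through its protein, which was not measured here. Its RNA averaged 108 ± 6.46 CPM in mutant pools and 95.9 ± 2.89 CPM in wild type pools (SD, n = 3 each; 0.17 ± 0.07, edgeR adjusted p = 0.211), and its footprints differed by 0.23 ± 0.09 (edgeR adjusted p = 0.196), which passed without mutant pool 2 (0.30, edgeR adjusted p = 0.0384).

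**Figure D2:**
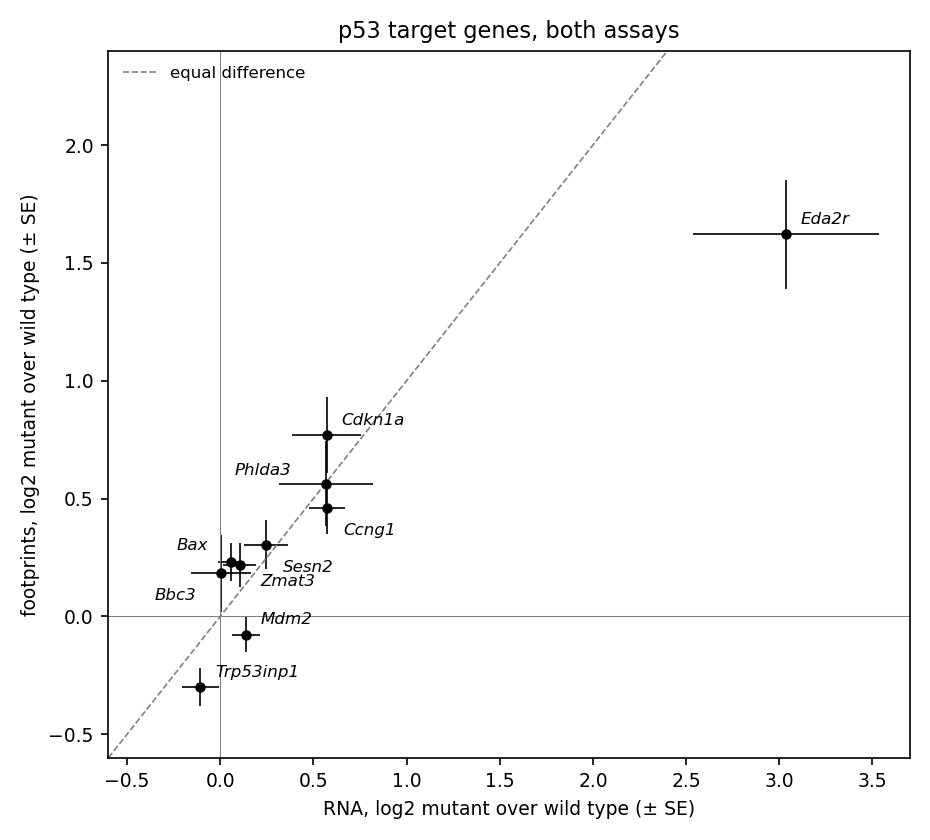
Log2 difference of mutant over wild type in RNA (x axis) against that in footprints (y axis) for each of the 10 genes, with standard errors as bars and a dashed line where both are equal. Eda2r stands alone at 3.04 in RNA and 1.62 in footprints, Cdkn1a, Ccng1 and Phlda3 lie between 0.46 and 0.77 on both axes, and Trp53inp1 lies below 0 on both.

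Translational efficiency, the footprint level for a given RNA level, was tested in a joint fit of 12 libraries, as a genotype effect that differs between assays. None of the 10 genes passed, nor did any of the 13877 genes tested (0% with edgeR, with 1366 at an unadjusted p under 0.05). DESeq2 called 20 genes and limma-voom 0, none of them among the 10, of which 1 had an unadjusted edgeR p under 0.05. Each pool supplied both of its libraries from one cell suspension, and a fit with a term for the pool gave 113 genes, or 0.814%, and still none of the 10. Eda2r had the lowest value, -1.42 ± 0.58 (edgeR adjusted p = 0.447), in which the wild type RNA level near 0 enters. Mdm2 followed at -0.20 ± 0.10 (edgeR adjusted p = 0.542), and turned to 0.16 when the incomplete lanes were added to mutant pool 1 (edgeR adjusted p = 0.860). Its log2 ratio of footprint CPM to RNA CPM was -1.02, -1.02 and -0.90 in mutant pools, against -0.63, -0.88 and -0.76 in wild type pools, with mutant pool 3 and wild type pool 2 nearly level. The other 8 genes lay between -0.18 (Trp53inp1) and 0.21 (Cdkn1a), each within 2 standard errors of 0.

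In wild type embryos alone, the 10 mRNAs differed in how many footprints they carried per RNA, relative to the centre of all genes. Trp53inp1 was densely occupied, at a log2 ratio of 1.20 ± 0.08 (edgeR adjusted p = 1.09e-08), above 97.4% of all genes tested. Eda2r stood at 1.17 ± 0.49, again on few counts, so that the order of these top genes is not settled. Next were Bbc3 at 0.78 ± 0.16, Phlda3 at 0.59 ± 0.22, Cdkn1a at 0.44 ± 0.18 and Sesn2 at 0.24 ± 0.10. These 6 were called higher, where 35.5% of genes were. Mdm2 (-0.67 ± 0.07, edgeR adjusted p = 7.69e-07), Ccng1 (-0.58 ± 0.10, edgeR adjusted p = 1.59e-04) and Zmat3 (-0.23 ± 0.09, edgeR adjusted p = 0.0336) were called lower, where 36.3% of genes were. Bax lay at the centre (0.08 ± 0.08). Since most genes passed in one direction or the other, these calls describe each gene rather than the set. The calls of Trp53inp1, Bbc3, Mdm2 and Ccng1 were kept when any pool was left out. Those of Cdkn1a, Eda2r, Sesn2 and Zmat3 were lost without wild type pool 1, 2 or 3, those of Sesn2 and Zmat3 also with no filter on low counts (edgeR adjusted p = 0.0601 for Sesn2 and 0.0782 for Zmat3), that of Phlda3 without wild type pool 1 or 2, that of Cdkn1a also without mutant pool 3 and that of Eda2r also without mutant pool 1 (edgeR adjusted p = 0.0506 to 0.207 without a pool).

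**Figure D3:**
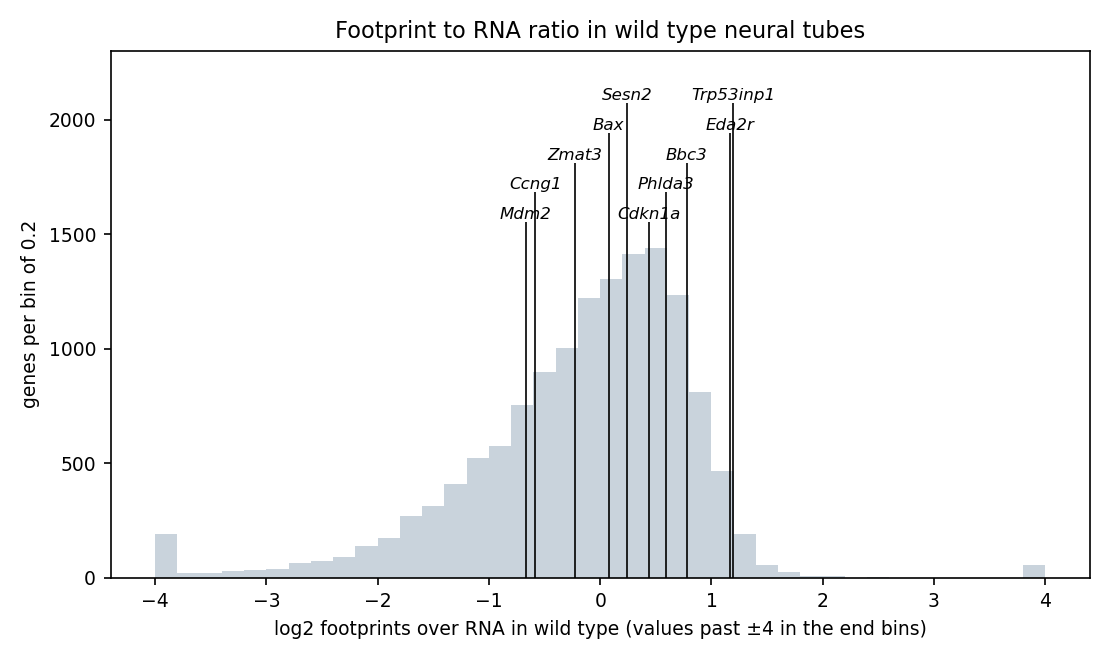
Histogram of the log2 ratio of footprints to RNA in wild type for 13877 genes in bins of 0.2, with the 10 genes marked by lines. Mdm2 and Ccng1 stand on the low side at -0.67 and -0.58, and Eda2r and Trp53inp1 near the upper end at 1.17 and 1.20.

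Per kilobase of counted coding sequence, wild type RNA levels ran from Bax at 181 ± 6.81 CPM per kb through Mdm2 at 63.2 ± 5.69, Trp53inp1 at 42.3 ± 2.90, Zmat3 at 40.4 ± 2.30, Ccng1 at 32.5 ± 1.82, Bbc3 at 13.1 ± 1.21, Cdkn1a at 12.5 ± 0.364, Sesn2 at 8.74 ± 0.412 and Phlda3 at 8.02 ± 2.52 to Eda2r at 0.340 ± 0.299 CPM per kb (SD, n = 3). Neighbours in this order overlapped between pools for Trp53inp1 and Zmat3, for Bbc3 and Cdkn1a, and for Sesn2 and Phlda3, and were apart elsewhere. In mutant RNA, Ccng1 stood at 48.4 ± 4.59 CPM per kb, next below Mdm2, although its pools overlapped those of Zmat3. Wild type footprints put Trp53inp1 next below Bax at 91.1 ± 3.28 CPM per kb, followed by Mdm2 at 37.2 ± 0.641 CPM per kb.

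The 5' leader is the stretch of mRNA scanned by the initiating ribosome before the coding start, and eIF3 takes part in that scanning. Leader footprints were set against coding footprints within each library. Mdm2 rose in this ratio, 1 of the 9 genes that could be tested, where 8.93% of 10829 genes rose and the median over all genes was 0.22, so that the share of the 9 was near the background. Mdm2 had 42.9, 26.3 and 36.4 leader footprints per 100 coding footprints in mutant libraries, against 18.9, 21.3 and 23.9 in wild type libraries. Every mutant pool was above every wild type pool, with mutant pool 2 nearest. The log2 difference was 0.71 ± 0.19 (edgeR adjusted p = 0.0337), from 227, 161 and 283 mutant leader footprints and 577, 191 and 417 wild type leader footprints. Leaving out any pool other than mutant pool 2 ended the call (0.56 to 0.79, edgeR adjusted p = 0.0833 to 0.206).

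The same ratio in Mdm2 RNA, tested after seeing the data, was 13.5, 10.5 and 13.1 leader counts per 100 coding counts in mutant libraries, against 13.9, 12.3 and 12.3 in wild type libraries (-0.04 ± 0.14, edgeR adjusted p = 0.998). The RNA pools of the genotypes thus overlapped. Mdm2 is known to be transcribed from an outer promoter and from an inner one that p53 activates, and upstream reading frames in the outer leader are known from human cells to lower its translation. The leader of the counted transcript, 294 bases long, holds 2 upstream ATG triplets, shown with the coding start since the footprint ratio concerns these bases. Capitals mark the ATG, and positions count from the 5' end of the transcript.
Mdm2 position 134: ggagcgaccATGgtc
Mdm2 position 190: ggtcggaagATGcgc
Mdm2 position 295, the coding start: tccaggccaATGtgc
The frames opened at positions 134 and 190 are 14 and 4 codons long and end within the leader. The counts do not tell where in the leader a footprint lay, and how footprints over the coding start were assigned is not given in the sources used here. Upstream ATG triplets were present in the counted leaders of 9 of the 10 genes, Cdkn1a having none, so their presence does not set Mdm2 apart.

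The other 8 tested genes did not pass in the leader ratio. Sesn2 had 33.9, 25.4 and 26.7 leader footprints per 100 coding footprints in mutant libraries, against 22.5, 23.5 and 22.0 in wild type libraries (0.33 ± 0.19, edgeR adjusted p = 0.276). Ccng1 spread widely in the mutant, at 92.2, 48.2 and 84.9, against 61.2, 65.7 and 62.9 in wild type (0.22 ± 0.21), and passed without mutant pool 2 (0.49, edgeR adjusted p = 0.0208), a fit that called 3124 of 11129 genes. Zmat3 carried nearly as many footprints in its leader as in its counted coding sequence, at 98.5 ± 8.67 per 100 in mutant libraries and 91.5 ± 10.7 per 100 in wild type libraries (SD, n = 3 each). Cdkn1a and Bax had values below 0 (-0.17 ± 0.19 and -0.01 ± 0.20). Eda2r had too few leader footprints to be tested, 6, 20 and 23 in mutant libraries and 14, 6 and 8 in wild type libraries.

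**Figure D4:**
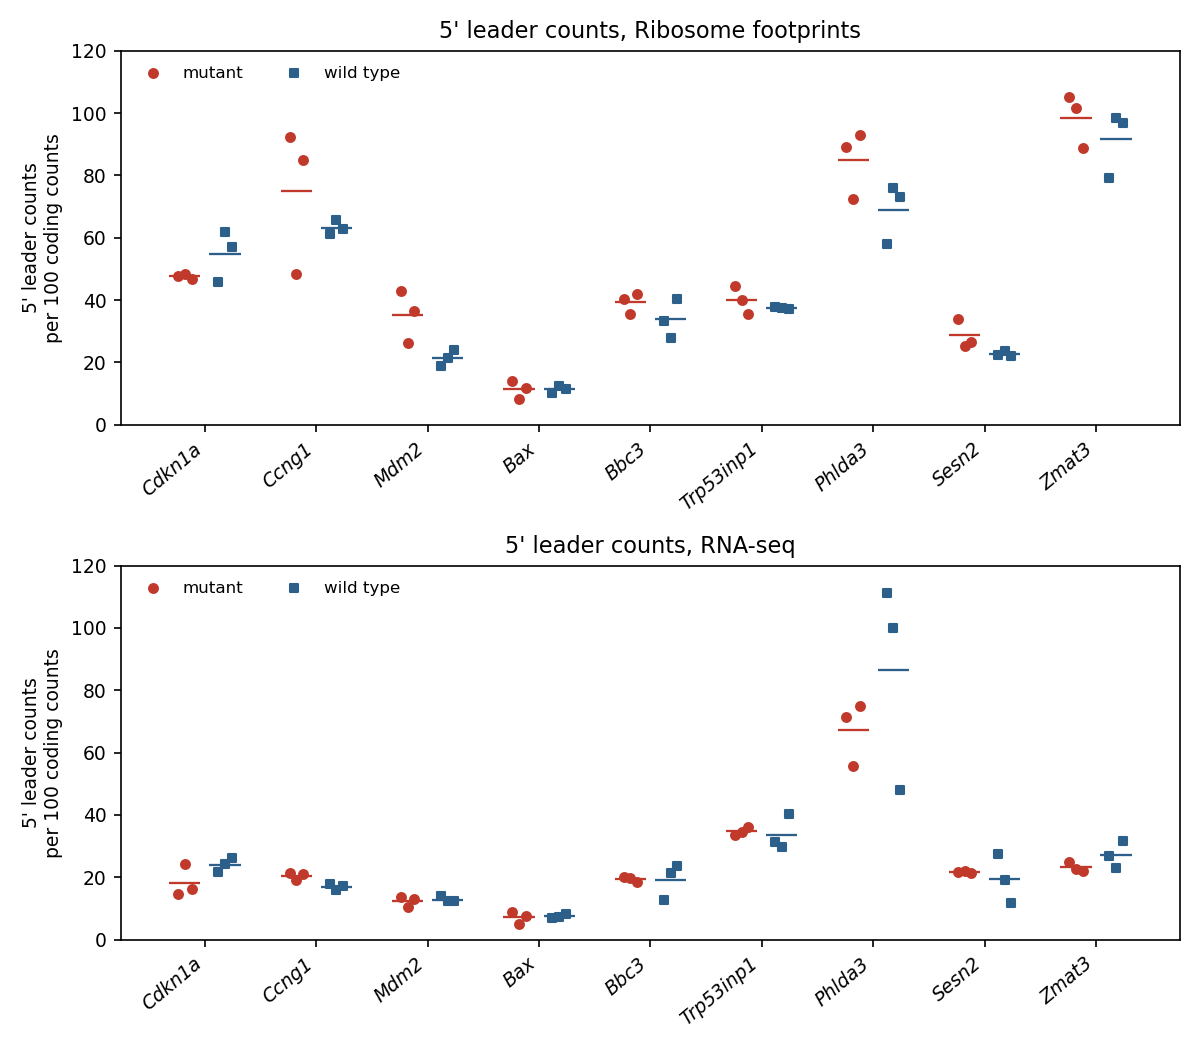
Leader counts per 100 coding counts in each library for 9 genes, footprints above and RNA below, with red circles for the 3 mutant pools, blue squares for the 3 wild type pools and lines for the means. For Mdm2 the mutant footprints sit between 26.3 and 42.9, above wild type at 18.9 to 23.9, while its RNA values lie together between 10.5 and 13.9.

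Beyond the 10 genes, 35 other known p53 targets were listed. Of these, 29 were tested in RNA and 30 in footprints, and none passed in either with edgeR, where 6 and 5 had an unadjusted p under 0.05. DESeq2 called 1 in RNA and 2 in footprints, and limma-voom 0 in both. Over all genes, 17.5% in RNA and 22.8% in footprints had such a p, DESeq2 called 3.93% and 6.49%, and limma-voom 0.649% and 0.968%, so that these counts lay near or below the background. The median RNA difference was 0.11, beside 0.01 over all genes, with 21 of 29 values above 0, beside 53.2% of all genes. In 5 of 29, mutant pools lay above all wild type pools, beside 11.2% of all genes. The smallest p in RNA belonged to the spindle gene Psrc1, at 48.4 ± 7.73 CPM in mutant RNA and 35.2 ± 0.909 CPM in wild type RNA (0.46 ± 0.11, edgeR adjusted p = 0.0724). It was followed by the spindle gene Ckap2 (0.26 ± 0.07), the mTORC1 inhibitor Ddit4 (-0.29 ± 0.11) and Pidd1, a scaffold for caspase 2 (0.39 ± 0.15). In footprints the median was 0.01, as over all genes, with 16 of 30 values above 0, beside 52.4% of all genes. Mutant pools lay above all wild type pools for 6 of 30, beside 14.4% of all genes, and below them for 1, beside 14.8%. The targets of smallest p in footprints were Pidd1 (0.71 ± 0.18, edgeR adjusted p = 0.0957), the p53 family member Trp73 (1.68 ± 0.46), the kinase gene Plk3 (0.41 ± 0.11) and Psrc1 (0.37 ± 0.12). Trp73, among the 6 without overlap, had 1.11 ± 0.657 footprint CPM in mutant libraries and 0.305 ± 0.113 CPM in wild type libraries. It passed the filter on low counts only through its mutant libraries, so it could enter the test only by being higher there. In the leader ratio, Tigar, which limits glycolysis, rose (0.79 ± 0.19, edgeR adjusted p = 0.0221), 1 of 25 tested beside 8.93% of all genes.

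Of 20 genes for p53 and its regulators, none passed with edgeR in either assay. In RNA 19 were tested, 5 at an unadjusted p under 0.05, beside 17.5% of all genes. In footprints 17 were tested, 6 such, beside 22.8% of all genes. DESeq2 called 1 in each assay, beside 3.93% and 6.49% of all genes, and limma-voom called 0. The checkpoint kinases led in RNA, Chek1 with 54.9 ± 2.57 CPM in mutant pools and 43.2 ± 3.33 CPM in wild type pools (0.35 ± 0.08, edgeR adjusted p = 0.0721), Chek2 (0.40 ± 0.10, edgeR adjusted p = 0.0734) and Atr (0.19 ± 0.06, edgeR adjusted p = 0.128). In footprints the smallest p-values belonged to Trp53bp1 (-0.23 ± 0.07) and Atm (-0.20 ± 0.07), both of the DNA damage response, followed by Ppp1r13b (-0.30 ± 0.12) and Ppp1r13l (0.32 ± 0.13), which bind p53. Chek1 rose in the leader ratio (0.68 ± 0.18, edgeR adjusted p = 0.0337), 1 of 15 tested. Among 18 other genes of intrinsic apoptosis, none passed with edgeR, DESeq2 or limma-voom in RNA (16 tested, 0 at an unadjusted edgeR p under 0.05, median -0.06) or footprints (17 tested, 2 such, median 0.06). The survival gene Bcl2l1 had the smallest p in footprints (-0.25 ± 0.09, edgeR adjusted p = 0.161). Mcl1, which restrains Bax (0.61 ± 0.15, edgeR adjusted p = 0.0230), and Bid, which activates it (0.84 ± 0.24, edgeR adjusted p = 0.0416), rose in the leader ratio, 2 of 15 tested. With 8.93% of all genes rising in that ratio, such counts are near the background.

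Paralogs that share a family with the 10 genes gave 0 calls with edgeR, DESeq2 or limma-voom in RNA (10 tested, 2 at an unadjusted edgeR p under 0.05, median -0.01) and in footprints (11 tested, 3 such, median 0.02). Over all genes, 17.5% in RNA and 22.8% in footprints had such a p. Ccng2, the relative of Ccng1, had 43.0 ± 9.21 footprint CPM in mutant libraries and 57.4 ± 2.99 CPM in wild type libraries (SD, n = 3 each; -0.41 ± 0.14, edgeR adjusted p = 0.138), where Ccng1 was above 0. Phlda2, the relative of Phlda3, had 0.785 ± 0.0452 footprint CPM in mutant libraries and 0.361 ± 0.0672 CPM in wild type libraries (1.03 ± 0.33, edgeR adjusted p = 0.131). Phlda2 passed the filter on low counts only through its mutant libraries, so that it could enter the test only by being higher there. Sesn3, the relative of Sesn2, stood at -0.24 ± 0.08 (edgeR adjusted p = 0.127), where Sesn2 was above 0. Trp53inp2 had the smallest p of this list in RNA (-0.28 ± 0.07, edgeR adjusted p = 0.0918). Targets of the stress factor Atf4, which also acts on Sesn2, gave 0 edgeR calls in RNA (15 tested, 3 at an unadjusted p under 0.05, median 0.12) and in footprints (17 tested, 7 such, median 0.31). In footprints DESeq2 called 3 of them and limma-voom 1, beside the 6.49% and 0.968% of all genes, and 22.8% of all genes had an unadjusted p under 0.05. In RNA both called 0. The serine synthesis gene Phgdh came nearest, at 52.8 ± 2.96 footprint CPM in mutant libraries and 39.0 ± 0.519 CPM in wild type libraries (0.44 ± 0.08, edgeR adjusted p = 0.0521).

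**Figure D5:**
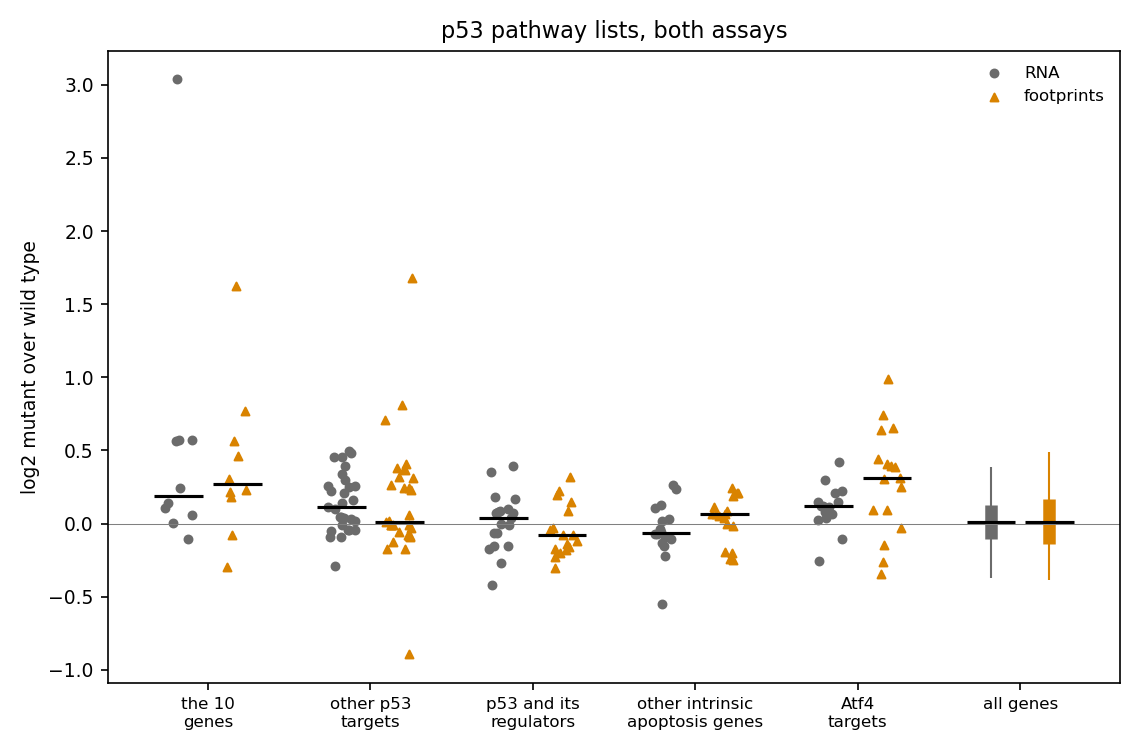
Log2 difference of mutant over wild type for each tested gene of 5 lists in RNA (grey circles) and footprints (orange triangles), with black lines at the medians. For all genes, thick bars run from the lower to the upper quartile and thin lines cover the central 90%. The 10 genes have medians of 0.19 in RNA and 0.27 in footprints, or 0.14 and 0.23 without Eda2r. The other p53 targets have medians of 0.11 and 0.01.

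Likeness to the 3 genes of largest RNA difference was measured as Pearson's r of log2 CPM over 12 libraries, centred within each assay, among 13010 genes. These libraries share their pools and the difference between genotypes, so r is given as a description. Closest to Eda2r were Zwilch (r = 0.976), Vrk1 (0.958), Chek2 (0.953), Ipo5 (0.952) and Aurka (0.943). Closest to Ccng1 were Pcdhb21 (0.952), Necab2 (0.938), Utp4 (0.937), Arhgap11a (0.932) and Ndc1 (0.930), with Sesn2 ninth (0.912) and Eda2r 13th (0.905). Closest to Cdkn1a were Mutyh (0.967), Opn3 (0.960), Ror2 (0.959), Atp5a1 (0.959) and Gdf7 (0.958), with Sesn2 at 0.821 and Ccng1 at 0.711. Trp53inp1 ran against all 3, at r of -0.87 to Cdkn1a, -0.63 to Ccng1 and -0.62 to Eda2r, and Mdm2 lay between -0.09 and 0.27.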

How the data were processed

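The authors deposited read counts for each transcript and its parts by lane, with 2 sequencing runs of 4 lanes per library. Per the submitters' processing notes, cutadapt, STAR, bedtools and mm10 were used; the sources used here give no versions, counting position, strand or handling of multi-mapped reads. Coding counts leave out the first 15 and last 5 codons. Lanes and runs were summed, leaving out 4 incomplete lanes of mutant footprint pool 1. These hold counts on only 2 or 3 chromosomes, where every other lane has counts on all 20 (autosomes and X). Genes were named with GENCODE vM21 and each was read from its transcript with the highest total. The 10 genes, the lists and the tests were chosen with earlier results of these data known. The rule named all 10 genes, Eif3c, Trp53, list genes past the threshold or else up to 4 of smallest p, and the 5 genes most alike. Some genes that the rule names are given only in counts or not reported here.

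Counts were tested with edgeR 4.0.16 in R 4.3.3 (TMM scaling, filterByExpr with a minimum of 10 counts and 15 in total, quasi-likelihood test, Benjamini-Hochberg adjustment over all genes tested, threshold 0.05), after a check on simulated data. DESeq2 1.42.0 and limma 3.58.1 gave alternatives. Standard errors are the log2 difference over the root of F. CPM values use TMM library sizes. Pools varied by 8.16% in RNA and 9.97% in footprints (biological coefficient of variation). Depth per library limits Eda2r and Phlda3 most.

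RNA and footprint libraries with the same pool number came from the same cells, and their deviations from the group means correlated at 0.245 to 0.611, so the pool is a block in an alternative fit of translational efficiency.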

Additional observations from a re-analysis of the deposited data

How the results depend on the processing

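The number of the 10 genes past the threshold was 2 in RNA, 1 in footprints, 0 in translational efficiency, 9 in the wild type footprint to RNA ratio and 1 in the leader ratio. In RNA it was 1 with DESeq2, whose own filter set no adjusted p for Eda2r, 1 with at least 50 counts in 3 libraries, a filter that drops Eda2r, and 0 with GC offsets. Leaving out 1 pool at a time gave 0 to 3 in RNA, 0 to 6 in footprints, 4 to 9 in the wild type ratio and 0 to 2 in the leader ratio. In footprints it was 4 with DESeq2, 2 with no filter, 0 with at least 50 counts in 3 libraries, and 0 with incomplete lanes included. With the replicate number as a block it was 2 in RNA and 0 in footprints, where Eda2r stood at 1.62 (edgeR adjusted p = 0.0677). Library names of same-numbered mutant and wild type pools share a code, but the labels do not say whether this pairs them. The pools were treated as unpaired, with correlations of same-numbered deviations of 0.0470 to 0.0888 in RNA and -0.113 to -0.0358 in footprints. The block changed no call of the 10 genes in translational efficiency or the wild type ratio. Over all genes, calls in RNA ran from 1 to 1522 around 52 and in footprints from 8 to 2333 around 34, the highest counts coming without mutant pool 2. The cause of these shifts was not tested.

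These directions turned for values that had not passed the test. RNA of Bbc3 was -0.0028 with DESeq2, -0.0007023 with RLE size factors, -0.0002504 with a replicate block, -0.0546 over whole transcripts and -0.087 to 0.056 with 1 pool left out. Footprints of Mdm2 were 0.29 with all lanes and 0.035 over whole transcripts, and those of Bbc3 -0.13 with GC offsets. Translational efficiency with GC offsets was 0.11 for Ccng1, -0.13 for Bbc3, -0.24 for Phlda3 and -0.083 for Sesn2. With all lanes it was 0.15 for Ccng1, 0.16 for Mdm2 and -0.0046 for Phlda3, which was -0.030 with limma-voom and down to -0.24 with 1 pool left out. The leader ratio of Bax ran from -0.17 to 0.19 and that of Eif3c from -0.029 to 0.19 with 1 pool left out. The depth limits Eda2r most, with at most 39 coding footprints and 35 coding RNA counts per library.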
